A study of Mus musculus with 8 samples.

Results

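The subject is how the difference between mature macrophages and Ly6C-high cells in a colorectal tumour compares with the same difference in healthy tissue. All 8 arrays of the series (8 of 8) entered the comparison. In tumour, the difference is F4/80-high tumour-associated macrophages (F4/80-high TAM) minus Ly6C-high tumour-infiltrating cells (Ly6C-high TAM), called here the tumour step. In healthy tissue it is lamina propria macrophages of the colon minus Ly6C-high monocytes of the spleen, called the steady-state step. The interaction is the tumour step minus the steady-state step for each gene. Each of the 4 populations had 2 arrays, named here by population and label number, as in F4/80-high TAM 1. Every population came from C57BL/6 mice of genotype Cx3cr1gfp/+, in which a green fluorescent protein replaces a copy of the fractalkine receptor gene, and no treatment was given. The tumours were orthotopic colorectal tumours, and all tissues were digested with Collagenase VIII before antibody staining and sorting. Both arrays of each tumour population were labelled male, those of colon macrophages male and female, and those of spleen monocytes male and mixed. The labels do not say whether replicates were separate animals or pools, so the p-values measure only the spread between these samples. The healthy populations also come from different organs, so maturation and organ cannot be told apart in the steady-state step.

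In healthy colon, Ly6C-high monocytes leave the blood, enter the lamina propria and lose monocyte genes stepwise while they gain the scavenger receptors, complement components and interleukin-10 of resident macrophages. Tumours recruit the same monocytes, and in mouse tumours the Ly6C-high cells are regarded as precursors of the F4/80-high macrophages. A Ly6C-high cell sorted from a tumour has already left the blood, whereas the spleen holds a reservoir of monocytes that have not entered an inflamed tissue.

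The values are log2 expression values on Affymetrix arrays, with array medians over 35556 probe sets between 6.84 and 7.07. They were summarised to 21442 genes. Adgre1 and Ly6c2 differed in the direction of the sort labels within each setting. No tumour step among the 14 sort and identity markers passed its threshold. For Adgre1, the gene of the F4/80 antigen, the log2 values were 12.49 and 12.31 in F4/80-high TAM, 11.93 and 11.15 in Ly6C-high TAM, 12.92 and 12.83 in colon macrophages and 12.07 and 12.02 in spleen monocytes. Its 2 steps were close to equal, 0.86 in tumour and 0.83 at steady state, and the interaction was 0.03 ± 0.34 (SE; limma adjusted p = 0.977). Ly6c2, which encodes a Ly6C antigen and has a near-identical neighbour in Ly6c1, lay at 10.91 and 11.57 in F4/80-high TAM against 13.01 and 12.71 in Ly6C-high TAM. In the healthy populations Ly6c2 lay at 9.89 and 10.16 in colon macrophages and 12.91 and 12.93 in spleen monocytes, and the interaction was 1.27 ± 0.33 (adjusted p = 0.0752). The macrophage receptor gene Csf1r spanned only 12.55 to 12.95 over the 8 arrays.

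Markers of other cell types were unequal between the arrays, and their part in the results was not tested. A fit with the epithelial mean as a covariate is given below with its limit. The mean log2 value of 102 epithelial markers was 9.64 and 10.41 in the colon macrophage arrays. It was 6.48 and 7.58 in F4/80-high TAM, 6.51 and 7.96 in Ly6C-high TAM, and 6.63 and 6.31 in spleen monocytes. The steady-state step of 83 of the 102 epithelial markers was positive and past its threshold, and 36 had a negative interaction that passed. The largest of these was Clca1, a product of goblet cells, at 12.76 and 13.13 in colon macrophages and between 5.82 and 8.06 on the other 6 arrays, with an interaction of -6.81 ± 1.08 (adjusted p = 0.0201) that lost its call without F4/80-high TAM 1 or any of the 4 healthy arrays. Outside the marker lists, each of the 12 largest lower genes other than Dab2 and Il1a was also highest on the 2 colon macrophage arrays. Among them Klk1, a tissue kallikrein, read 11.72 and 12.58 there and between 6.35 and 8.74 on the other 6 arrays, with an interaction of -5.90 ± 1.05 (adjusted p = 0.028) that was lost without F4/80-high TAM 1 or any of the 4 healthy arrays. B4galnt2, a glycosyltransferase gene, read 11.09 and 12.09 against 6.03 to 6.38, with -5.29 ± 0.43 (adjusted p = 0.00391). The count of 36 epithelial markers became 11 without F4/80-high TAM 1, 80 without Ly6C-high TAM 1, 9 without either spleen monocyte array, 17 without the second colon macrophage array, 23 without Ly6C-high TAM 2 and 22 without F4/80-high TAM 2. The second tumour arrays also had more fibroblast signal than the first, with means over 23 markers of 8.31 against 7.58 in F4/80-high TAM and 8.78 against 7.80 in Ly6C-high TAM. These means were 7.52 and 7.62 in colon macrophages and 6.69 and 6.64 in spleen monocytes. Since each array is a bulk sample, fewer cells of a type and less RNA per cell cannot be told apart.

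**Figure D1:**
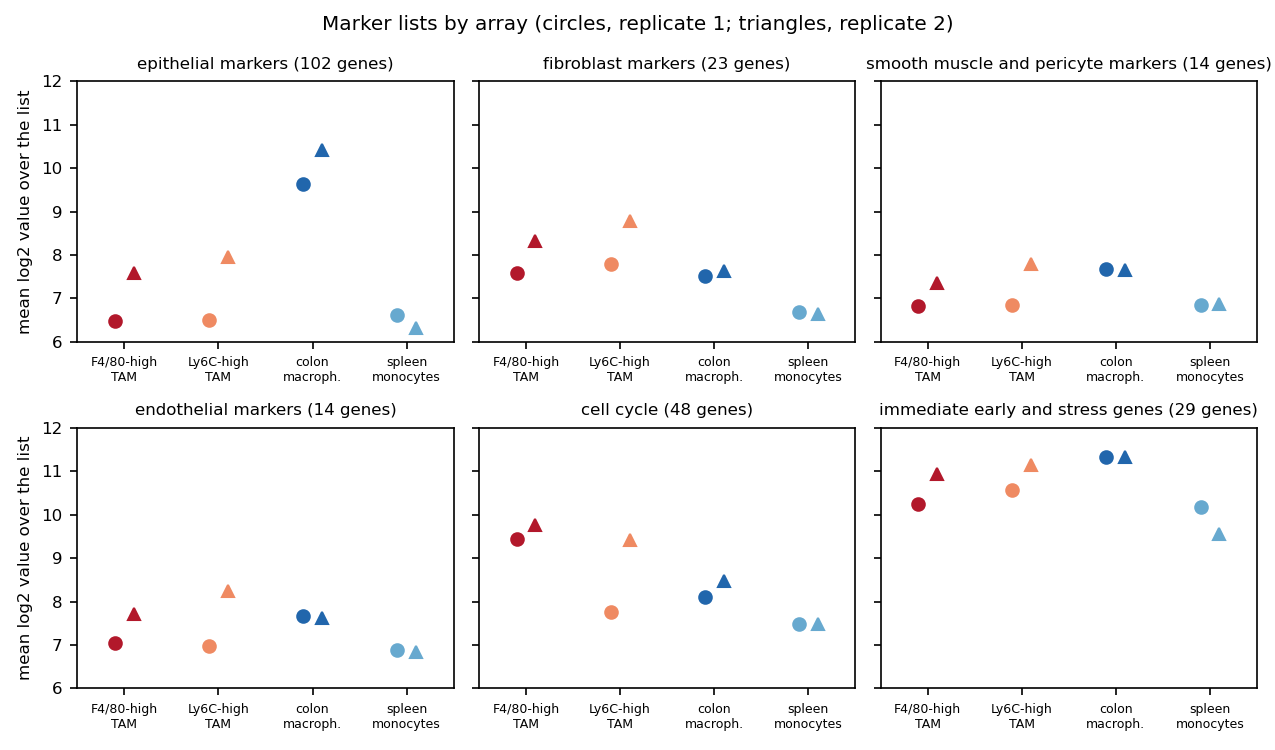
Mean log2 value over each of 6 gene lists on every array (vertical axis) for the 4 populations (horizontal axis), with replicate 1 as circles and replicate 2 as triangles. Epithelial markers were highest on the 2 colon macrophage arrays (9.64 and 10.41), and the cell cycle list was lower on Ly6C-high TAM 1 (7.76) than on the other 3 tumour arrays (9.42 to 9.76).

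More genes passed along the steady-state step than along the tumour step. From spleen monocytes to colon macrophages 1486 genes rose (6.93% of the 21442 tested) and 857 fell (4%), 10.9% in all. The threshold for a step was at least a 2-fold change with an adjusted p no higher than 0.05. From Ly6C-high TAM to F4/80-high TAM 36 genes rose (0.168%) and 21 fell (0.0979%), 0.266% in all. At an unadjusted p below 0.05 by limma, with no fold limit, the gap was smaller. There were then 6531 genes for the steady-state step and 1837 for the tumour step. The interaction passed for 1407 genes at an adjusted p no higher than 0.05 with no fold limit, 6.56% of those tested, with 670 higher in tumour (3.12%) and 737 lower (3.44%). "Higher" means that the tumour step was more positive or less negative than the steady-state step. Centring each array on its median moved the median interaction over all genes from 0.14 to 0.35, and the calls then split into 1001 higher and 715 lower, 58.3% higher against 47.6%. With the mean of the epithelial markers as a covariate no gene passed by limma, with 4714 genes at an unadjusted p below 0.05 against 4855 in the fit without it, and the median standard error grew from 0.24 to 0.39. That mean was 9.64 and 10.41 in colon macrophages and no higher than 7.96 on any other array. The covariate therefore largely marks the colon macrophages, and its slope rests on differences between arrays of the same population. This fit cannot separate the epithelial markers from that population, and nothing is concluded from it. Without a moderated variance 131 genes were higher and 69 lower.

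In most genes that passed the interaction, the steady-state step was the larger one. The median absolute step of the 1407 genes was 0.23 in tumour and 1.70 at steady state, and the tumour step was the larger for 54 of them. Among the 670 higher genes the median tumour step was 0.02 and the median steady-state step -1.25. Among the 737 lower genes the medians were -0.06 and 2.29. In 436 of the higher genes the steady-state step fell past its threshold while the tumour step did not pass, and in 659 of the lower genes the steady-state step rose while the tumour step did not pass. No gene had both steps past their thresholds in opposite directions. The interaction is by construction also the tumour-minus-healthy difference of the mature populations less that of the Ly6C-high populations, so a large value may rest on any of the 4 populations.

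These counts moved with single arrays, each of which was 1 of 2 in its population and left 3 residual degrees of freedom when removed. All comparisons share one estimate of the spread, so leaving out an array can change calls of a step that it does not enter. The healthy arrays do not enter the tumour step, whose median over all genes stayed at 0.05 when any of them was left out. Calls of the tumour step lost in this way reflect the estimated spread, not the values of the genes. The 670 higher genes became 199 without F4/80-high TAM 1, 295 without F4/80-high TAM 2, 1286 without Ly6C-high TAM 1, 308 and 232 without the first and second colon macrophage array, and 90 and 75 without the first and second spleen monocyte array. The 737 lower genes became 203 and 374 without F4/80-high TAM 1 and 2, 1452 without Ly6C-high TAM 1, 305 without the second colon macrophage array, and 140 and 97 without the first and second spleen monocyte array. The 36 and 21 genes of the tumour step became 0 and 0 without F4/80-high TAM 1 or either spleen monocyte array, 3 and 3 without either colon macrophage array, 11 and 8 without Ly6C-high TAM 1, 20 and 32 without F4/80-high TAM 2, and 190 and 55 without Ly6C-high TAM 2.

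**Figure D2:**
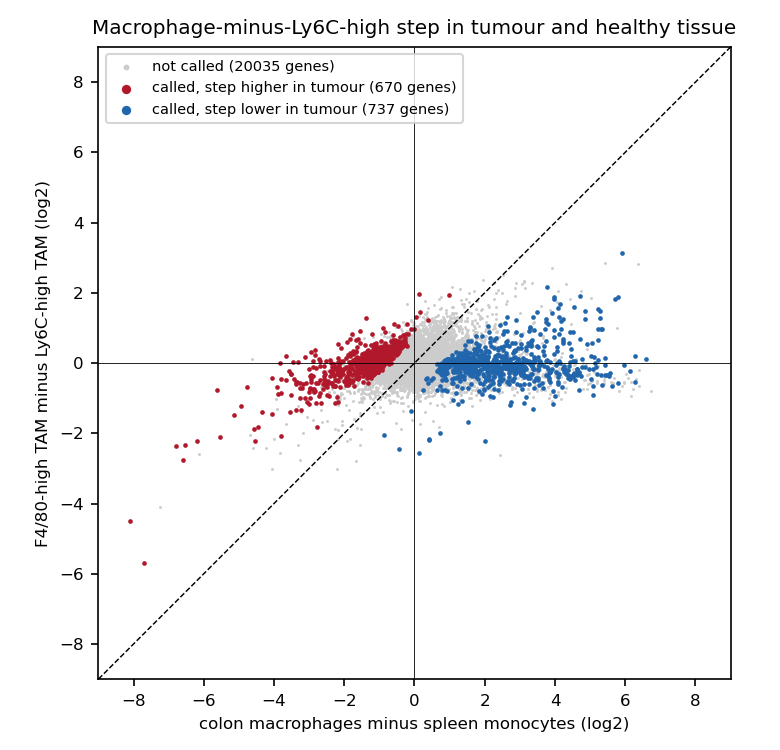
The tumour step (vertical axis, log2) against the steady-state step (horizontal axis, log2) for 21442 genes, with 670 genes of a higher step in tumour in red, 737 of a lower step in blue and the dashed line where the steps are equal. The coloured genes spread along the horizontal axis, with a median absolute step of 1.70 at steady state and 0.23 in tumour.

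Of 38 genes of classical monocytes, 14 had a higher interaction, 3 a lower one and 21 did not pass, with a median of 1.35 against 0.14 over all genes. Their median step was -1.41 in tumour and -2.92 at steady state. The counts of this and the later lists stand beside 3.12% of all genes higher and 3.44% lower. Ifitm6, a member of the interferon-induced transmembrane family, read 8.999 and 8.499 in F4/80-high TAM, 11.26 and 10.97 in Ly6C-high TAM, 5.93 and 5.61 in colon macrophages and 12.55 and 12.57 in spleen monocytes. The 4 populations did not overlap, and the mature cells of the tumour sat between the colon macrophages and both Ly6C-high populations. Ifitm6 fell in both settings, by 2.37 in tumour (adjusted p = 0.0201) and by 6.79 at steady state (adjusted p = 6.13e-05). Its interaction of 4.42 ± 0.30 (adjusted p = 0.00252) is a 21.4-fold difference between the steps.

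Serpinb10, a serpin of myeloid cells, had the widest tumour step among the named genes. It stood at 9.02 and 9.66 in Ly6C-high TAM and at 12.82 and 12.72 in spleen monocytes, but at 4.97 and 4.70 in F4/80-high TAM and 4.87 and 4.47 in colon macrophages. Both mature populations were therefore at the same low level, and Serpinb10 fell by 4.51 in tumour (adjusted p = 0.00597) and by 8.10 at steady state (adjusted p = 6.13e-05). That level lies under the array medians of 6.84 to 7.07. Whether background cut off the falls was not tested, here or for other low values given below. The interaction of 3.59 ± 0.34 (adjusted p = 0.00543) came from the lower start of the tumour cells. Slfn1, of the Schlafen family, showed the other pattern, with 11.71 and 11.16 in F4/80-high TAM, 12.57 and 11.86 in Ly6C-high TAM, 12.01 and 12.17 in spleen monocytes and only 6.36 and 6.56 in colon macrophages. Here 3 populations shared a high level and the colon macrophages stood alone, with a tumour step of -0.78 (adjusted p = 0.46) and an interaction of 4.85 ± 0.39 (adjusted p = 0.00386). Trem3, a receptor that signals through an immunoreceptor tyrosine-based adaptor, was alike, at 9.63 and 9.51 in F4/80-high TAM, 10.36 and 10.12 in Ly6C-high TAM, 11.37 and 11.26 in spleen monocytes and 6.79 and 6.28 in colon macrophages, with an interaction of 4.11 ± 0.27 (adjusted p = 0.00252).

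Some genes of the higher group were high in spleen monocytes alone. Klrb1f, a lectin-like receptor gene known from natural killer cells, read 10.75 and 10.60 in spleen monocytes and between 5.63 and 6.99 on the other 6 arrays, with an interaction of 3.72 ± 0.18 (adjusted p = 0.00229). Bex6, Cyp2ab1, a member of the cytochrome P450 family, and Btla, an inhibitory receptor of lymphocytes, were alike. Their interactions were 3.47 ± 0.22, 3.63 ± 0.33 and 3.19 ± 0.25 (adjusted p = 0.00234, 0.00458 and 0.00358), and their highest values outside the spleen monocytes were 6.09, 6.78 and 6.39. The calls of these 4 genes held with any array left out.

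Cdc42ep3, Hp and S100a4 followed other patterns. Cdc42ep3, an effector of the small GTPase CDC42, read 8.04 and 7.99 in F4/80-high TAM, 8.13 and 7.51 in Ly6C-high TAM, 6.48 and 6.93 in colon macrophages and 10.41 and 10.30 in spleen monocytes, with an interaction of 3.85 ± 0.34 that held with any array left out. Hp, which encodes haptoglobin, read 8.58 and 8.04, 10.79 and 10.28, 6.05 and 5.28, and 12.01 and 11.69 in the same order, so all 4 populations were apart. Its interaction was 3.97 ± 0.46, and it lost its call without the first spleen monocyte array. S100a4, a calcium-binding protein of motile cells, was low only in colon macrophages (6.89 and 6.59), against 9.39 and 10.87 in F4/80-high TAM, 11.38 and 11.86 in Ly6C-high TAM and 11.83 and 11.90 in spleen monocytes. It had 3.64 ± 0.63 and lost its call without either array of colon macrophages or of spleen monocytes. The count of 14 monocyte genes became 8 and 9 without the first and second spleen monocyte array, and the count of 3 became 1 and 0 without the same arrays. The 3 lower ones were Thbs1, Ly6a and Dgat2, with interactions of -2.44, -2.16 and -2.004.

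**Figure D3:**
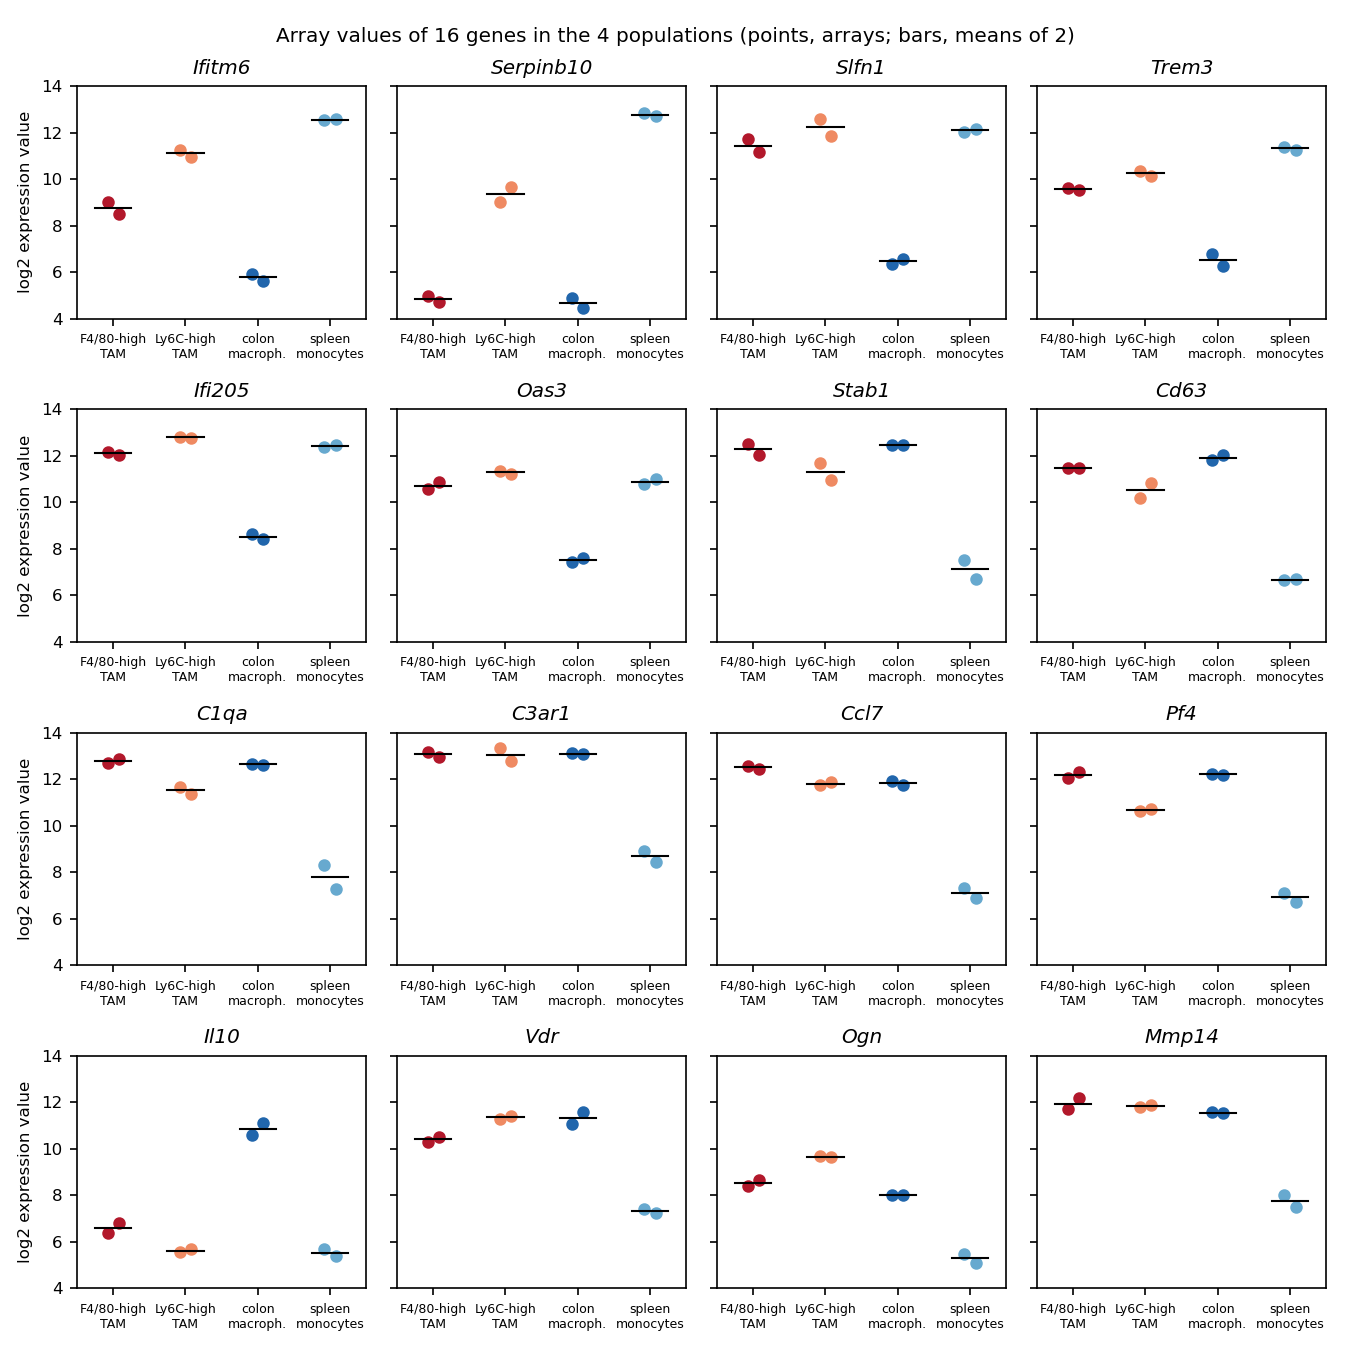
Log2 expression value (vertical axis) of 16 genes on every array of the 4 populations (horizontal axis), with points for arrays and a bar for the mean of 2. Slfn1, Ifi205 and Oas3 were low only in colon macrophages, Stab1, C3ar1, Ccl7 and Mmp14 were low only in spleen monocytes, and Il10 was high only in colon macrophages.

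Type I interferons bind a receptor that activates STAT and IRF factors, and these act through the interferon-stimulated response element of target promoters. Of 44 measured genes of the interferon response 15 had a higher interaction, 29 did not pass and none was lower by limma, with 26 higher and 0 lower at an unadjusted p below 0.05. The list's median step was -0.52 in tumour and -1.45 at steady state, and its median interaction 1.00. Ifi205, of the interferon-inducible p200 family, read 12.17 and 12.03 in F4/80-high TAM, 12.82 and 12.77 in Ly6C-high TAM, 12.38 and 12.48 in spleen monocytes and 8.65 and 8.40 in colon macrophages. Oas3, a sensor of double-stranded RNA that activates RNase L, read 10.57 and 10.85, 11.36 and 11.24, 10.77 and 10.98, and 7.42 and 7.60 in the same order. In both genes the colon macrophages lay far under every other array. The interactions were 3.22 ± 0.19 for Ifi205 and 2.78 ± 0.22 for Oas3 (adjusted p = 0.00229 and 0.00349), and the calls held with any array left out. Cross-hybridisation between similar members of the p200 family was not tested.

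Irf7, the factor that amplifies the interferon response, had an interaction of 2.06 ± 0.30 (adjusted p = 0.0166), and Cmpk2, a mitochondrial nucleotide kinase, 1.97 ± 0.21 (adjusted p = 0.00671). Irf7 lost its call without either spleen monocyte array and Cmpk2 without the second. The other members that passed were Usp18, Ms4a4b, Ifi27l2a, Rtp4, Mx1, Xaf1, Sp100, Zbp1, Oasl2, Ifit3 and Dhx58, with interactions from 1.23 to 1.96. All 15 fell past the threshold of the steady-state step, and none passed that of the tumour step. The count of 15 became 5 and 7 without F4/80-high TAM 1 and 2, 24 without Ly6C-high TAM 1, 8 without either colon macrophage array, and 3 and 2 without the first and second spleen monocyte array. The interferon-inducible GTPases, which act on intracellular parasites and are driven mainly by interferon gamma, did not share this direction: of 15 genes 1 was higher and 3 lower. Gbp4 was lower, at 11.22 and 11.23 in F4/80-high TAM, 11.72 and 11.33 in Ly6C-high TAM, 10.75 and 10.26 in colon macrophages and 7.95 and 8.17 in spleen monocytes, with an interaction of -2.74 ± 0.30 (adjusted p = 0.00707). The count of 3 became 1 without the first spleen monocyte array and 5 without Ly6C-high TAM 2, and the count of 1, Gvin1, became 0 without either spleen monocyte array and 2 without Ly6C-high TAM 1 or the second colon macrophage array.

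The response element is shown for the interferon genes whose promoter holds GAAA, any 2 bases and GAAA again, searched on both strands from 250 bases before to 50 bases after the gene start in RefSeq's GRCm38.p6 annotation. Each window is 40 bases on the strand of the gene, and capitals mark the match, which in Ifit3 is the reverse complement.
Ifi205, chr1:174031865-174031904, minus strand: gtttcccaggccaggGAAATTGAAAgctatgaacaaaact
Oas3, chr5:120777710-120777749, minus strand: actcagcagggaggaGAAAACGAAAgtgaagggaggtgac
Ifit3, first site, chr19:34583358-34583397, plus strand: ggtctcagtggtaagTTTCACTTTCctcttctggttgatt
Ifit3, second site, chr19:34583392-34583431, plus strand: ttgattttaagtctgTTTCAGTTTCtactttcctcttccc
The match begins 134 bases before the start in Ifi205 and 75 bases before it in Oas3, and the ends of the Ifit3 windows overlap. Promoters were matched for 9 of the 15 genes that passed, and 3 of the 9 hold the letters (33.3%), against 16 of 23 (69.6%) among the interferon genes that did not pass and 639 of 15939 promoters of measured genes (4.01%). Since under 80% of the genes had a promoter, the comparison of these shares is void, and a match describes letters, not a bound site.

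Of 51 genes of resident tissue and gut macrophages, 22 had a lower interaction, 29 did not pass and none was higher by limma, with 34 lower and 2 higher at an unadjusted p below 0.05. The median step of the list was 0.91 in tumour and 2.83 at steady state, and 35 of its genes rose along the steady-state step against 5 along the tumour step. Cd63, a tetraspanin of late endosomes, read 11.48 and 11.46 in F4/80-high TAM, 10.18 and 10.83 in Ly6C-high TAM, 11.80 and 12.03 in colon macrophages and 6.66 and 6.69 in spleen monocytes. Stab1, a scavenger receptor that clears modified lipoproteins and matrix fragments, read 12.52 and 12.04, 11.68 and 10.95, 12.46 and 12.47, and 7.53 and 6.72. In both genes the Ly6C-high cells of the tumour lay under both mature populations, but closer to them than to the spleen monocytes. The spleen monocytes lay far under the 6 other arrays. The interactions were -4.28 ± 0.31 for Cd63 and -4.38 ± 0.49 for Stab1 (adjusted p = 0.00301 and 0.0075). Dab2, an endocytic adaptor, had the largest negative interaction of any gene named outside the marker lists, -6.07 ± 0.91 (adjusted p = 0.0175). Its spleen monocyte arrays differed, at 8.04 and 5.75 against 12.79 to 13.19 on the other 6 arrays, and the call was lost without either array of F4/80-high TAM or of colon macrophages.

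Il10 differed from the rest of the resident list. It encodes interleukin-10, the cytokine with which gut macrophages restrain inflammation, and read 10.58 and 11.09 in colon macrophages. It was 6.37 and 6.83 in F4/80-high TAM, 5.55 and 5.68 in Ly6C-high TAM and 5.67 and 5.37 in spleen monocytes. The mature cells of the tumour thus lay far under those of the colon, and the interaction was -4.34 ± 0.33 (adjusted p = 0.00332), with a tumour step of 0.98 (adjusted p = 0.222). Mertk, a receptor for apoptotic cells, and Mrc1, the mannose receptor CD206, had -3.302 ± 0.63 and -2.54 ± 0.54 (adjusted p = 0.0334 and 0.044). Both lost their calls without any one array other than those of Ly6C-high TAM. The count of 22 became 14 without F4/80-high TAM 1, 11 without the second colon macrophage array, and 10 and 8 without the first and second spleen monocyte array.

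The subunits of C1q, which opens the classical complement pathway and is a product of tissue macrophages, were among the 7 of 20 complement genes with a lower interaction. None was higher by limma, with 2 higher and 11 lower at an unadjusted p below 0.05. C1qa read 12.69 and 12.86 in F4/80-high TAM, 11.65 and 11.37 in Ly6C-high TAM, 12.66 and 12.61 in colon macrophages and 8.29 and 7.27 in spleen monocytes. The mature populations of tumour and colon thus lay at one level, while the Ly6C-high populations differed. The interactions were -3.59 ± 0.44 for C1qa, -3.21 ± 0.35 for C1qb and -3.62 ± 0.45 for C1qc (adjusted p = 0.01, 0.00707 and 0.01). C3ar1, the receptor of the complement fragment C3a, was level over 3 populations, at 13.17 and 12.94 in F4/80-high TAM, 13.32 and 12.76 in Ly6C-high TAM and 13.10 and 13.09 in colon macrophages, against 8.89 and 8.45 in spleen monocytes. Its tumour step was 0.02 and its interaction -4.41 ± 0.33 (adjusted p = 0.00324). All 4 calls held with any array left out, and the count of 7 ran from 5 to 9.

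Chemokines, which draw leukocytes into tissue, gave 10 lower and 1 higher of 25 genes, with a median step of 0.01 in tumour and 1.81 at steady state. Ccl7, a ligand of CCR2 that attracts monocytes, read 12.57 and 12.42 in F4/80-high TAM, 11.75 and 11.86 in Ly6C-high TAM, 11.93 and 11.74 in colon macrophages and 7.33 and 6.89 in spleen monocytes, with an interaction of -4.03 ± 0.25 (adjusted p = 0.00229). Cxcl16, a membrane-bound ligand of CXCR6, had -3.61 ± 0.37 (adjusted p = 0.00636). Pf4, platelet factor 4 and also a product of macrophages, rose along both steps, by 1.49 in tumour (adjusted p = 0.0359) and 5.29 at steady state (adjusted p = 6.13e-05), and its interaction was -3.80 ± 0.24 (adjusted p = 0.00229). These 3 genes shared low spleen monocytes and high values in the other populations, and their calls held with any array left out. The count of 10 became 5 and 6 without F4/80-high TAM 1 and 2, 6 and 4 without the first and second colon macrophage array and 3 without the second spleen monocyte array. The 1 higher gene was Ccl9, at 0.93, and this count became 0 without any array other than Ly6C-high TAM 1.

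A pair of chemokines was highest in Ly6C-high TAM, with F4/80-high TAM between these and the healthy populations. Ccl24, an eotaxin that attracts eosinophils, read 9.55 and 10.58 in Ly6C-high TAM against 7.24 and 7.76 in F4/80-high TAM, 6.59 and 6.57 in colon macrophages and 6.54 and 6.35 in spleen monocytes. Its tumour step was -2.56 (adjusted p = 0.0548), its steady-state step 0.13 and its interaction -2.70 ± 0.48 (adjusted p = 0.0272). Cxcl3, a neutrophil attractant, was alike, at 10.15 and 9.79 in Ly6C-high TAM, 7.22 and 8.32 in F4/80-high TAM and between 6.12 and 6.83 in the healthy populations, with an interaction of -2.60 ± 0.50 (adjusted p = 0.0351). Ccl24 kept its call only without an array of Ly6C-high TAM, and Cxcl3 lost it without either array of colon macrophages or of spleen monocytes.

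Inflammatory cytokines and mediators gave 8 lower and 2 higher of 41 genes. Il1a, which encodes interleukin-1 alpha, read 10.08 and 11.65 in F4/80-high TAM, 11.18 and 11.80 in Ly6C-high TAM, 10.64 and 11.12 in colon macrophages and 5.88 and 5.21 in spleen monocytes, with an interaction of -5.96 ± 0.75 (adjusted p = 0.0104). The spleen monocytes lay far under the other arrays, whose populations overlapped, and the call was lost without the second spleen monocyte array. Il6, a cytokine of acute inflammation, was instead higher in Ly6C-high TAM (7.44 and 8.00) than in F4/80-high TAM (5.46 and 5.96), colon macrophages (5.06 and 5.50) or spleen monocytes (4.69 and 4.42). Its interaction was -2.73 ± 0.38 (adjusted p = 0.0144), and it lost its call without F4/80-high TAM 1, the second colon macrophage array or either spleen monocyte array. Il1b and Tnf had -3.13 ± 0.51 and -1.68 ± 0.27 (adjusted p = 0.0227 and 0.0201), and each lost its call without either spleen monocyte array and the second colon macrophage array, Il1b also without the first and Tnf without F4/80-high TAM 1. The count of 8 became 3 without F4/80-high TAM 1, 4 and 2 without the first and second colon macrophage array and 5 and 1 without the first and second spleen monocyte array. The count of 2, Trem3 and Trem1, became 1 without any single array.

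Some of the matrix genes of the study's title also differed between the steps. Of the 23 fibroblast markers, whose array means are given above, 1 had a higher and 1 a lower interaction. At an unadjusted p below 0.05 by limma, 1 was higher and 8 were lower. The part of fibroblast signal in the matrix results was not tested. Of 45 matrix glycoproteins and proteoglycans, 7 had a lower and 2 a higher interaction, with medians of -0.58 in tumour and 0.91 at steady state. Ogn, a small leucine-rich proteoglycan, read 8.40 and 8.68 in F4/80-high TAM, 9.67 and 9.63 in Ly6C-high TAM, 8.03 and 8.03 in colon macrophages and 5.47 and 5.10 in spleen monocytes. Aspn, of the same family, read 8.24 and 7.82, 9.42 and 8.92, 7.56 and 7.52, and 4.42 and 4.42. In both genes the Ly6C-high cells of the tumour were the highest and those of the spleen the lowest, without overlap. The interactions were -3.85 ± 0.23 for Ogn and -4.26 ± 0.29 for Aspn (adjusted p = 0.00229 and 0.00265). Dcn and Bgn, which encode the collagen-binding proteoglycans decorin and biglycan, had -5.46 ± 0.63 and -4.68 ± 0.79 (adjusted p = 0.00802 and 0.0243), and in the tumour populations both were higher on the second arrays. Dcn lost its call without the second spleen monocyte array, and Bgn without F4/80-high TAM 1 or any of the 4 healthy arrays.

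Fn1, which encodes the adhesive glycoprotein fibronectin, ran the opposite way. It read 13.02 and 13.22 in F4/80-high TAM, 13.61 and 13.53 in Ly6C-high TAM, 13.41 and 13.44 in spleen monocytes and 9.65 and 9.60 in colon macrophages. The 3 other populations were within 1 log2 unit of each other and the colon macrophages stood apart, with an interaction of 3.35 ± 0.17 (adjusted p = 0.00229) that held with any array left out. Thbs1, which encodes thrombospondin 1, had -2.44 ± 0.30 (adjusted p = 0.0102) and lost its call without the second spleen monocyte array. The count of 7 matrix genes became 22 without Ly6C-high TAM 1 and 2 without the second spleen monocyte array. None of 34 collagen genes passed by limma, against 6.56% of all genes, with 1 at an unadjusted p below 0.05. A list of this size with none says little, and lower calls appeared in it without Ly6C-high TAM 1. Col14a1, a collagen of fibril surfaces, rose by like amounts in both settings, by 2.09 in tumour (10.85 and 10.78 against 8.65 and 8.80, adjusted p = 0.00845) and by 2.38 at steady state (9.20 and 9.02 against 6.63 and 6.84, adjusted p = 0.000217). Its interaction was -0.29 ± 0.19 (adjusted p = 0.465).

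Matrix proteases and their inhibitors gave 6 lower and 2 higher of 39 genes. Mmp14, a membrane-anchored collagenase, read 11.71 and 12.17 in F4/80-high TAM, 11.81 and 11.88 in Ly6C-high TAM, 11.57 and 11.52 in colon macrophages and 8.02 and 7.52 in spleen monocytes, with an interaction of -3.68 ± 0.30 (adjusted p = 0.00403). Plau, the urokinase plasminogen activator, and Mmp12, macrophage elastase, had -3.31 ± 0.24 and -3.23 ± 0.36 (adjusted p = 0.00324 and 0.0075), and these calls and that of Mmp14 held with any array left out. Mmp13, a collagenase, was the one protease named here with a tumour step above 1, at 1.81 (adjusted p = 0.191). It had -3.89 ± 0.56 (adjusted p = 0.0157) and lost its call without F4/80-high TAM 1, the second colon macrophage array or the second spleen monocyte array. The count of 6 became 12 without Ly6C-high TAM 1, and the count of 2, Serpinb10 and Hpse, became 1 without either spleen monocyte array.

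Transcription factors of the lineage gave 6 lower and 3 higher of 40. Vdr, the vitamin D receptor, had the largest interaction among them, -4.95 ± 0.28 (adjusted p = 0.00229). It read 10.29 and 10.52 in F4/80-high TAM, 11.27 and 11.42 in Ly6C-high TAM, 11.07 and 11.59 in colon macrophages and 7.40 and 7.24 in spleen monocytes, so its tumour step was negative (-0.94, adjusted p = 0.179) and its steady-state step positive (4.01, adjusted p = 0.000174). Spic, which splenic red pulp macrophages need, was higher, with 8.86 and 9.24 in colon macrophages, 9.65 and 9.35 in spleen monocytes, 6.26 and 6.58 in F4/80-high TAM and 5.47 and 5.25 in Ly6C-high TAM. Both healthy populations were far above both tumour populations, and the interaction of 1.51 ± 0.28 (adjusted p = 0.0313) lost its call without any array other than Ly6C-high TAM 1. The count of 6 became 3 and 2 without the first and second spleen monocyte array. The count of 3 became 1 without the first colon macrophage array and 0 without any other single array except Ly6C-high TAM 1.

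Genes of alternative activation and of tumour-associated macrophages gave 11 lower and 1 higher of 32, with median steps of 0.10 in tumour and 0.69 at steady state. Vegfa, the vascular growth factor, read 11.26 and 11.92 in F4/80-high TAM, 12.15 and 12.20 in Ly6C-high TAM, 10.09 and 11.10 in colon macrophages and 7.45 and 7.21 in spleen monocytes. Both tumour populations were above the colon macrophages, and the interaction was -3.84 ± 0.50 (adjusted p = 0.0115), lost without either spleen monocyte array. Cd83, a marker of activated antigen-presenting cells, had -4.05 ± 0.34 (adjusted p = 0.0042), and Cd274, which encodes the checkpoint ligand PD-L1, -2.24 ± 0.20 (adjusted p = 0.00458). Cd274 was level over 3 populations, between 11.31 and 11.77, against 9.52 and 9.41 in spleen monocytes. The count of 11 became 6 and 5 without the first and second spleen monocyte array. The count of 1 became 0 without F4/80-high TAM 1, the second colon macrophage array or either spleen monocyte array, and 2 without either Ly6C-high TAM array.

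Antigen presentation by MHC class II gave 3 lower of 16 genes (18.8%), and MHC class I none of 16 by limma, with 1 at an unadjusted p below 0.05. Over all genes 6.56% passed, and a higher class I call appeared without Ly6C-high TAM 1. H2-Eb1, a class II chain, read 13.65 and 13.62 in colon macrophages, 12.33 and 12.86 in F4/80-high TAM, 12.38 and 12.26 in Ly6C-high TAM and 12.13 and 11.77 in spleen monocytes. Its interaction was -1.40 ± 0.29 (adjusted p = 0.041), and it was lost without F4/80-high TAM 1, Ly6C-high TAM 2 or any of the 4 healthy arrays. The count of 3 became 1 without Ly6C-high TAM 2 and 0 without F4/80-high TAM 1 or any of the 4 healthy arrays. Integrins and adhesion genes gave 5 higher and 6 lower of 30. Itga6, a laminin-binding integrin chain, was low only in spleen monocytes (6.56 and 6.06 against 10.48 to 11.63 on the other arrays), with an interaction of -3.84 ± 0.42 (adjusted p = 0.00736). The 5 became 3 without either F4/80-high TAM array or Ly6C-high TAM 2, 8 without Ly6C-high TAM 1, and 2 without the second colon macrophage or either spleen monocyte array. The 6 became 3 without F4/80-high TAM 1, the second colon macrophage array or either spleen monocyte array. The 29 immediate early and stress genes, which tissue digestion is known to induce, gave 6 lower, among them Egr2, Ier3, Maff and Myc. Their list means were 11.33 on both colon macrophage arrays, 10.24 and 10.93 in F4/80-high TAM, 10.58 and 11.14 in Ly6C-high TAM and 10.19 and 9.55 in spleen monocytes, and their part in the other results was not tested. The 6 became 3 without F4/80-high TAM 1 or the first colon macrophage array, 2 without the second array of either healthy population, and 10 without Ly6C-high TAM 1.

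The cell cycle list had a positive tumour step in 48 of 48 genes, with a median of 1.05. Its steady-state step was positive in 45 of 48, with a median of 0.85. No gene of it passed in the interaction by limma, against 6.56% of all genes, with 4 at an unadjusted p below 0.05. Without Ly6C-high TAM 2 the list had 8 genes higher, and without Ly6C-high TAM 1 it had 5 lower. The list means were 9.44 and 9.76 in F4/80-high TAM, 7.76 and 9.42 in Ly6C-high TAM, 8.11 and 8.46 in colon macrophages and 7.48 and 7.47 in spleen monocytes. Ly6C-high TAM 1 lay far under the other 3 tumour arrays. The other lists of cell state and matrix covered receptors, hypoxia, respiration, lysosomes, lipid, iron, scavenging, lectins, crosslinking, growth factors and costimulation. They had 0 to 3 genes higher and 0 to 5 lower. The share that passed ran from 2.7% of 37 respiration genes to 38.1% of 21 costimulatory and checkpoint genes, against 6.56% of all genes. It was 25% in the iron and scavenging lists and 17.1% in the lectin list. These counts moved with single arrays left out.

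**Figure D4:**
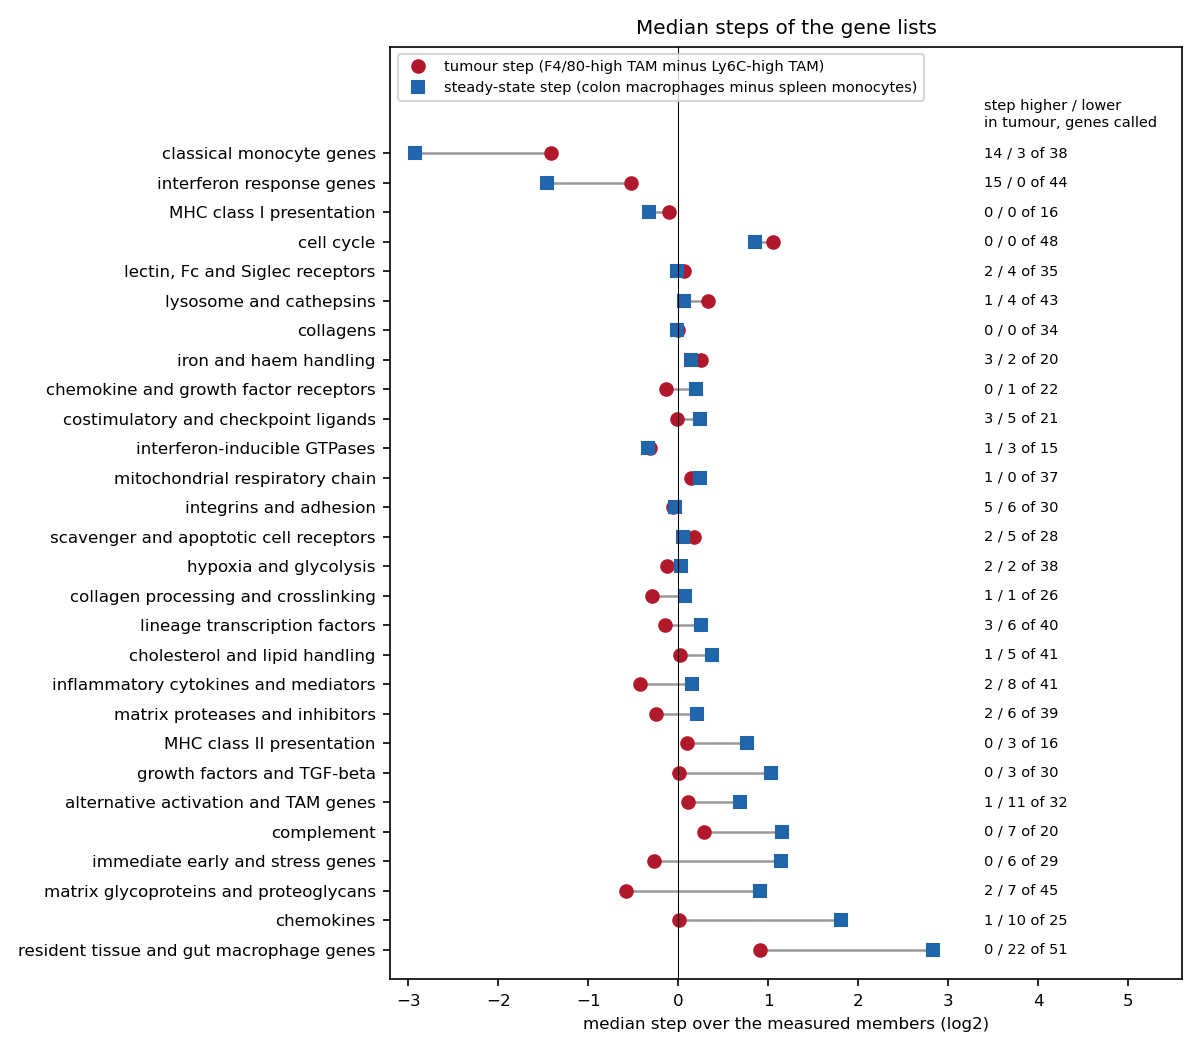
Median tumour step (circles) and median steady-state step (squares) in log2 (horizontal axis) over the measured members of each list of cell state, matrix or stress genes (vertical axis), without the marker lists of other cell types, with the numbers of genes called higher and lower in the interaction at the right. Among these lists, classical monocyte genes had the most negative steps (-1.41 and -2.92) and resident macrophage genes the most positive steady-state step (2.83).

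The position of the tumour populations between the healthy ones divided the genes further. For this description, chosen after the data were seen, each tumour mean was set against the midpoint of the means of colon macrophages and spleen monocytes, for the 1114 genes whose interaction and steady-state step both passed. Among 668 genes with a lower interaction, both tumour populations were nearer the colon macrophages in 230 and nearer the spleen monocytes in 399, and they fell on opposite sides in 39. Among 446 genes with a higher interaction the numbers were 208, 172 and 66. The groups of genes did not divide alike. All 15 interferon genes had both tumour populations on the side of the monocytes, and all 7 complement genes had them on the side of the colon macrophages. Of the 22 resident macrophage genes 18 were on the colon side, 3 were split, and Il10 alone was on the monocyte side. The epithelial markers were on the monocyte side in 34 of 36 genes, since only the colon macrophage arrays were high in them.

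**Figure D5:**
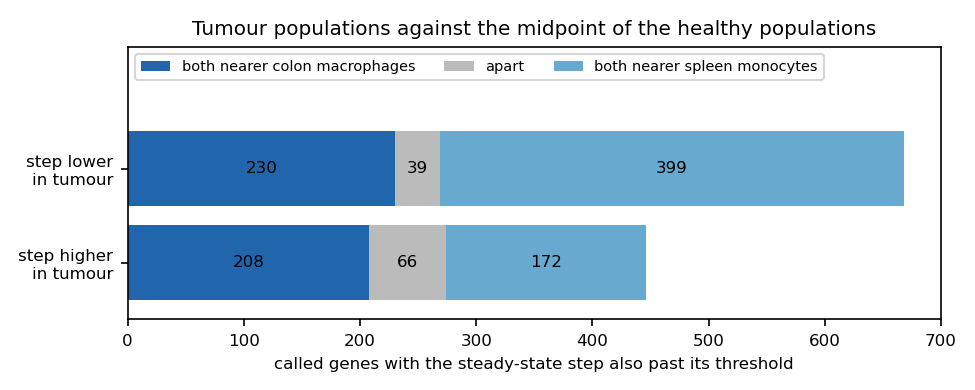
Number of genes (horizontal axis) whose 2 tumour populations were both nearer the colon macrophages, both nearer the spleen monocytes or on opposite sides of the midpoint, for genes with a higher and a lower step in tumour (vertical axis). Of 668 genes with a lower step 399 lay on the monocyte side, and of 446 with a higher step 208 lay on the colon side.

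In 54 of the 1407 genes the tumour step was the larger one, positive in all 40 that were higher and negative in all 14 that were lower. In 8 of these the tumour step passed its threshold and the steady-state step did not, for Mefv and Tnfsf13b only because of the fold limit. The genes of this paragraph and the next were singled out after their values were seen. Gpat3, an enzyme of triglyceride synthesis, read 10.17 and 10.003 in Ly6C-high TAM, 7.81 and 8.04 in F4/80-high TAM, 7.21 and 7.46 in colon macrophages and 6.79 and 7.07 in spleen monocytes. It fell by 2.17 along the tumour step (adjusted p = 0.011), changed by 0.41 at steady state (adjusted p = 0.155), and its interaction of -2.57 ± 0.23 (adjusted p = 0.00468) held with any array left out. Dgat2, which catalyses the last reaction of triglyceride synthesis, fell by 2.43 (10.29 and 10.37 against 7.49 and 8.29), with an interaction of -2.004 ± 0.35 (adjusted p = 0.0262). Mefv, which encodes the inflammasome sensor pyrin, and the small Cajal body-specific RNA gene Scarna13 were also lower, at -1.18 ± 0.20 and -1.26 ± 0.23. Tnfsf13b, which encodes the B cell survival factor BAFF, rose by 1.95 along the tumour step (11.02 and 11.11 against 9.13 and 9.11, adjusted p = 0.00597), while its steady-state step of 0.99 lay just under the fold limit. Ckb, the brain-type creatine kinase, Bmyc and Radx had interactions of 0.84 ± 0.18, 1.33 ± 0.19 and 1.29 ± 0.23 (adjusted p = 0.0447, 0.0166 and 0.0297). Htr2b, a serotonin receptor gene, read 7.56 and 8.38 in F4/80-high TAM and between 5.38 and 6.18 on the other 6 arrays. Its tumour step of 1.96 missed the threshold (adjusted p = 0.0561), and its interaction of 1.82 ± 0.38 (adjusted p = 0.041) lost its call without Ly6C-high TAM 2 or any of the 4 healthy arrays. Of the 8 calls only that of Gpat3 held with any array left out, and the highest adjusted p of the others ran from 0.0979 for Bmyc to 0.199 for Ckb, with the arrays responsible different from gene to gene.

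Steps that passed in both settings were few and always ran the same way. Among genes with an interaction that passed, 10 fell in both, including Ifitm6, Serpinb10 and Klrb1f, and 9 rose in both, including Pf4, the integrin chain gene Itga9, the acid phosphatase gene Acp5 and Fcrls. Fcrls, an Fc receptor-like gene known from microglia, read 11.82 and 11.004 in F4/80-high TAM, 8.31 and 8.24 in Ly6C-high TAM, 11.67 and 11.87 in colon macrophages and 6.32 and 5.39 in spleen monocytes. It rose by 3.13 in tumour and by 5.92 at steady state (adjusted p = 0.0372 and 0.000262), and its interaction of -2.78 ± 0.51 (adjusted p = 0.0298) was lost without the second array of any population or the first of colon macrophages. Both steps also passed in 24 genes whose interaction did not pass, 18 rising and 6 falling, which does not show that their steps were equal. Folr2, the folate receptor of tissue macrophages, read 11.16 and 10.48 in F4/80-high TAM, 7.92 and 8.31 in Ly6C-high TAM, 10.69 and 11.25 in colon macrophages and 7.06 and 7.06 in spleen monocytes. It rose by 2.71 in tumour and 3.91 at steady state (adjusted p = 0.0324 and 0.00044), with an interaction of -1.20 ± 0.40 (adjusted p = 0.136). Adgre4 encodes an adhesion receptor related to F4/80. It fell by 2.75 and by 3.25 (adjusted p = 0.0142 and 0.000357) to 6.02 and 6.62 in F4/80-high TAM but only to 9.48 and 9.15 in colon macrophages, with an interaction of 0.50 ± 0.31 (adjusted p = 0.426).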

How the data were processed

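Total RNA from 8 sorted samples was hybridised to Affymetrix arrays. The authors deposited log2 expression values made with RMA in Partek 6.6, per the submitters' processing notes. No source used here gives a build. A deposited annotated table supplied symbols for 24692 of 35556 probe sets; its 8 value columns match no sample label and were not used. Symbols were updated through RefSeq accessions (21023 matched), and a gene with several probe sets (1901 of 21442) took the one with the highest mean. One model with 4 population means was fitted over 8 arrays with limma 3.58.1 in R 4.3.3 (4 residual and 2.64 prior degrees of freedom), with Benjamini-Hochberg adjustment over all genes in each comparison. Every adjusted p is limma's, errors are standard errors, and n is 2 arrays per population, which limits the precision. The fit was tested on simulated data with independent arrays. That test does not cover the correlation of 0.77 between deviations of same-numbered tumour arrays. The main fit also treated these arrays as independent, so its errors and p-values do not allow for the correlation. The simulation and the fit gave each gene the same spread in all populations. Array weights, which are larger where arrays spread less, were 3.08 for spleen monocytes and 0.80 for colon macrophages. They were 0.77 for F4/80-high TAM and 0.52 for Ly6C-high TAM.

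The members and the 40 gene lists (1199 of 1217 entries measured) were chosen with earlier results of these data known, so list counts are descriptions. The named genes were, among those that passed and kept their sign over 16 choices of arrays, the 12 largest in each direction outside marker lists and predicted transcripts, up to 4 per list of cell state or matrix, any with both steps called in opposite directions (none), the 3 largest of each marker list and all sort markers; the text shows some of them, and Fn1, Fcrls, Thbs1, Plau, Mmp12, Il1b, Il6, Tnf, Cxcl3, Ccl9, Folr2, Col14a1, Adgre4, the genes listed to complete a count and those of the last 2 paragraphs lie outside this rule and were chosen after their values were seen. Alternatives were other normalizations, a filter on dim genes, other variance models, array weights, the mean of probe sets, a replicate block, marker covariates and arrays left out. With an array left out, the lone array of its population was assumed to vary like the others. Some genes counted in the lists are not reported here by name.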

Additional observations from a re-analysis of the deposited data

Results flagged for a closer look

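The difference between the tumour step and the steady-state step was itself tested, and it passed for 670 genes with a higher and 737 genes with a lower step in tumour. Of these, 8 had a tumour step past its threshold and a steady-state step that was not. Their interactions were -2.57 for Gpat3, -2.0 for Dgat2, -1.26 for Scarna13, -1.18 for Mefv, 0.84 for Ckb, 0.96 for Tnfsf13b, 1.29 for Radx and 1.33 for Bmyc.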

How the results depend on the processing

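The 670 higher and 737 lower genes became 131 and 69 without moderation, 0 and 0 with the epithelial mean as a covariate (4714 genes at an unadjusted p below 0.05 by limma), 1771 and 1836 with the cell cycle mean, and 75 to 1286 and 97 to 1452 with 1 array left out; the fibroblast mean gave 1108 higher. The 36 rising and 21 falling genes of the tumour step became 1 and 0 without moderation, 125 and 66 with the epithelial, 231 and 118 with the fibroblast and 139 and 113 with the cell cycle mean, 207 and 98 without both second tumour arrays, and 0 to 190 and 0 to 55 with 1 array left out; array weights gave 10 rising. The 1486 rising and 857 falling genes of the steady-state step became 351 and 524 with the epithelial mean and 702 to 1686 and 556 to 909 with 1 array left out, with 657 rising without moderation, 1655 falling under median centring and 1973 falling with no fold limit. The tumour step without a healthy array changed only through the shared estimate of the spread. The cause of the other changes was not tested.

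The replicate numbers were tested as a block, although the correlation of deviations between same-numbered arrays was 0.77 for the tumour populations, 0.22 and 0.26 for each of them with colon macrophages, and below 0 for the 3 pairs with spleen monocytes. The replicate block gave 784 higher and 1105 lower genes, 18 rising in the tumour step, and lost the call of 1 of 129 genes followed singly, those named by rule and some picked after their values were seen.

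Of these 129, 45 kept their call with any array left out and none reversed; the epithelial covariate reversed Atp8b1 (0.19) and Sycn (0.16) and ended the call of the other 127. As said above, the epithelial covariate cannot be separated from the colon macrophage population. Values that never passed also changed sign. They were Adgre1 (-0.0358 under quantile normalization, -1.25 and -0.71 with the epithelial and fibroblast means, -0.27 without both second tumour arrays, -0.36 to 0.42 with 1 array left out), Ccr2 (-1.43 and -0.53 with these means, -0.0925 to 0.73), Csf1r (-0.26 and -0.10), Cx3cr1 (-1.92 and -0.73), Itgam (-0.37 and -0.0646), Cd68 (-0.0801 with the epithelial mean, -0.0046 without both second tumour arrays) and Fcgr1 (0.15 under median centring, -0.29 to 0.16 with 1 array left out). Among list medians, those of 9 lists near 0 changed sign under median centring. With 2 arrays per population, leaving out 1 array ends many single calls, and it also changes the shared estimate of the spread.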
